A study of Danio rerio with 12 samples.

Results

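Gene expression in the 5-day-old offspring of zebrafish fed 1 ppm methylmercury was compared with that in the offspring of fish fed the control diet. The comparison used 6 of the 12 libraries of the study, 3 for the control diet (0 ppm) and 3 for the 1 ppm diet, chosen by their labels. All fish were of the EK strain and of the F1 generation, and their parents had received the diet throughout their life cycle. Each library was made from total RNA of a pool of 5 whole embryos at 5 days post-fertilization, and pools from parental diets of 3 and 10 ppm made up the other 6 libraries. Separate clutches or parents for the 3 pools are not given by the labels, and p-values therefore cover the spread between pools, which may be technical. Of 32674 genes, 18390 had a mean scaled count of at least 10 over the 12 libraries and were described.

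Methylmercury is an organic form of mercury that fish take up with food and that passes from the mother into the egg. It binds to thiol and selenol groups of proteins and is known for its toxicity to the developing brain and retina. A zebrafish larva of this age swims, sees and has a working liver and pancreas, and most of its tissues hold their own light-sensitive circadian clock. In that clock the Clock and Arntl (Bmal) proteins switch on genes of the Per, Cry and Nr1d families, which in turn repress them, so the level of a gene such as per1b changes over the day.

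The values are scaled counts, that is, fragment numbers of each gene after the authors' division by a library factor. The control libraries held 7.04, 9.62 and 7.42 M recovered fragments and the 1 ppm libraries 7.44, 7.30 and 5.63 M. Library 3 of the 1 ppm diet was the shallowest, had the fewest genes at 1 FPKM (18970) and correlated with the other 11 libraries at 0.926 to 0.972. All 34 marker symbols found for the tissues of a larva were above 0 in each of the 6 libraries, from krt4 of the skin to ddx4 of germ cells. Differences are on the log2(scaled count + 1) scale, as 1 ppm minus control, which understates the change of low genes.

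Clock genes split the libraries inside each diet. The period gene per1b, a repressor of the clock, had 78.2, 864 and 721 scaled counts in control pools 1 to 3 and 57.0, 549 and 549.9 in 1 ppm pools 1 to 3. Control 1 and 1 ppm 1 were therefore taken as libraries of low per1b, and control 2 and 3 with 1 ppm 2 and 3 as libraries of high per1b, the midpoint lying at 208 scaled counts. Each diet thus had 1 low and 2 high libraries, and the diets could be compared within matching states. Both low-state libraries carry the replicate number 1, and the labels give no time of sampling, so the clock state and anything else shared by these libraries cannot be told apart. As the states were set from measured values, differences between states are given without a test.

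Other clock genes split the libraries in the same way. The nuclear receptor gene nr1d1, a repressor of arntl genes, had 14.9, 1694 and 967 in control pools and 13.6, 395 and 571 in 1 ppm pools. Its high-state libraries were lower at 1 ppm than in the controls, and its low-state libraries were nearly equal. The activator gene arntl1b, named after its values were seen, ran the other way, with 206, 70.6 and 29.6 in control against 156, 92.9 and 35.1 in 1 ppm pools. The high minus low difference of the list of clock repressors had a median of 1.16 in the controls and 0.82 at 1 ppm. This list includes per1b, which set the states. For clock activators the medians were -1.28 and -0.95. Some pigment genes had state differences as well. The pigment epithelium gene rpe65a, whose enzyme regenerates the visual pigment, had 13.2, 638 and 766 in control pools and 49.3, 487 and 641 in 1 ppm pools. Over the 16 tested genes of melanin synthesis and black pigment cells the median state difference was 1.85 in the controls and 1.24 at 1 ppm. The list of pigment epithelium and visual cycle genes, which holds rpe65a, had only 0.10 and 0.05. That of iridescent and yellow pigment cells had 0.22 in the controls and -0.11 at 1 ppm.

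**Figure D1:**
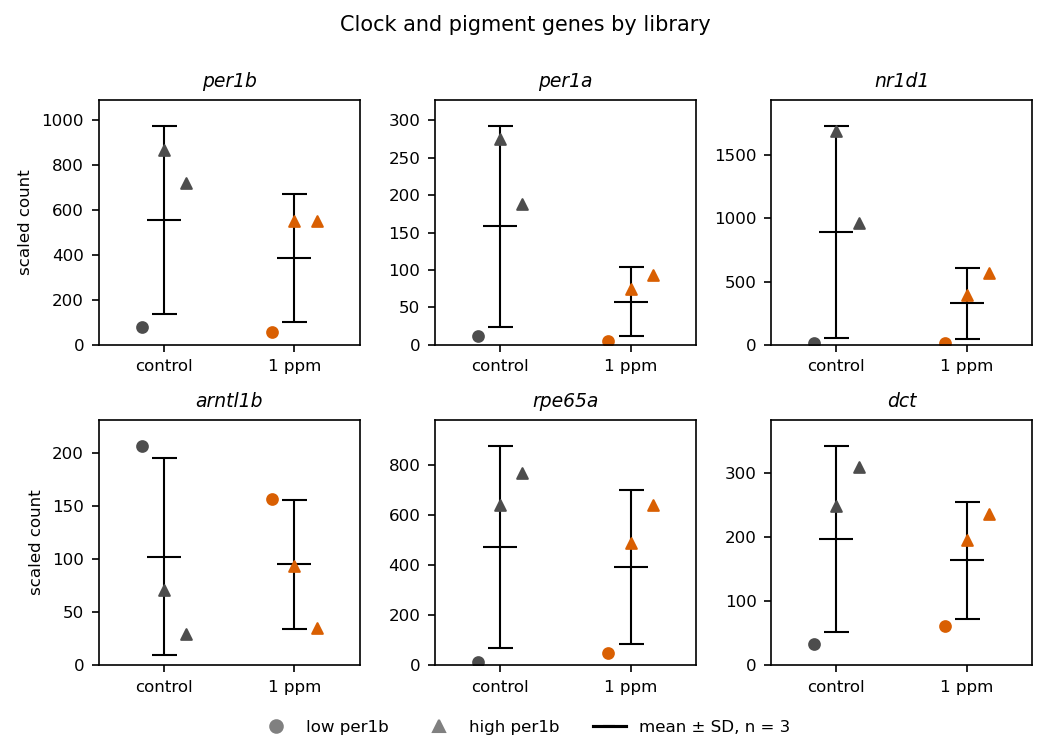
Scaled counts of 6 genes in the 3 control and the 3 libraries of 1 ppm. Circles are libraries of low per1b, triangles libraries of high per1b, and bars give the mean ± SD (n = 3). Each panel separates circles from triangles in both diets, that of per1b by definition, and per1a is lower at 1 ppm within each state.

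The period gene per1a, a second repressor of this family, had the largest diet difference of the 21 tested clock repressors. It had 11.4, 276 and 188 in control against 5.102, 74.3 and 93.6 in 1 ppm pools. Both high-state controls lay above both high-state libraries of 1 ppm, and control 1 above 1 ppm 1. The difference was -1.44 among high-state and -1.03 between low-state libraries. With the state as a term its difference was -1.30 (SE 0.27; limma adjusted p = 1.00). Of the 21 tested clock repressors, 18 were lower at 1 ppm, with a median of -0.44 among high-state and -0.19 between low-state libraries. The median over all libraries was -0.32 and turned to 0.09 without control 2 and to 0.01 without 1 ppm 1, and it was -0.74 without control 1. These omissions leave unequal numbers of high-state libraries in the diets.

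Other repressors showed smaller differences. The period gene per2 had 330.4, 639 and 851 in control pools and 284, 525 and 612 in 1 ppm pools. The basic helix-loop-helix repressor gene bhlhe41 had 96.7, 444 and 487 in control against 97.8, 264 and 323 in 1 ppm pools, so that it was lower at 1 ppm in the high state and level in the low state. The cryptochrome gene cry2b, which ran opposite to per1b between states, had 874, 194 and 147 in control pools and 889, 286 and 225 in 1 ppm pools and was higher at 1 ppm in the high state. None of these genes passed the test.

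Over all tested genes, differences between states were related across the diets more closely than differences between diets were across the states. The state difference inside the controls and that inside the 1 ppm diet, which share no library, correlated at r = 0.47 over 18390 genes, with 65.7% of genes of the same sign. The diet difference of the low pair and that of the high-state libraries, which share none either, correlated at r = 0.04, with 49.6% of the same sign. Each diet has 1 low library, so the state correlation is also that of the number 1 pools' deviations from their diet means (0.472). For the number 3 pools, both of high per1b, these deviations correlated at 0.442, and for the number 2 pools at -0.108. Each diet mean includes the number 1 pool, so the deviations of the number 2 and number 3 pools alike carry part of the state difference. Control 2 correlated with 1 ppm 3 at 0.269 and control 3 with 1 ppm 2 at -0.218, all of them of high per1b. Whether the likeness of the number 3 pools stands apart from the state was not tested. Genes are not independent replicates, and these values are descriptions. A state difference beyond 1 in both diets was seen in 104 genes that were higher in the high state and 120 that were lower, and 22 differed by more than 1 in opposite directions. A diet difference beyond 1 in both states was seen in 10 genes that were higher at 1 ppm and 22 that were lower, and 17 differed by more than 1 in opposite directions. In the low pair 1.3% of genes were higher at 1 ppm by more than 1 and 1.6% lower, and among the high-state libraries 0.326% and 0.723%. The low pair has 1 library for each diet.

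**Figure D2:**
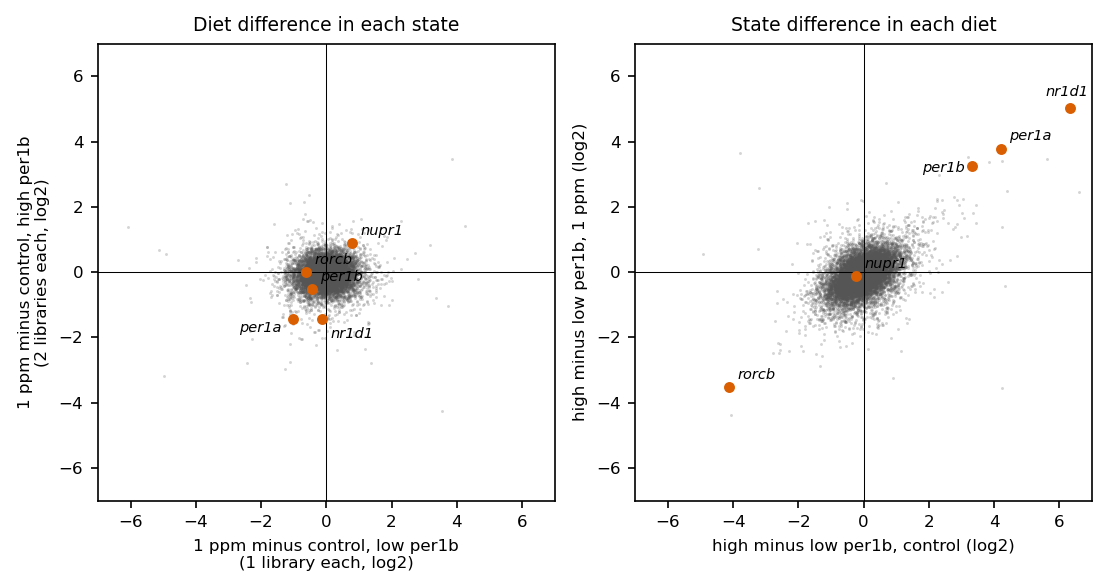
Each dot is 1 of 18390 genes. Left, the diet difference (1 ppm minus control, log2) in the low-per1b pair against that in the high-per1b libraries. Right, the difference of high minus low per1b (log2) in the controls against that at 1 ppm. The left cloud shows no slope, and the right cloud is drawn out along the diagonal. At the upper end of the right cloud lie nr1d1, per1a and per1b, the last of which set the states. At its lower end lies rorcb.

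No gene passed at an adjusted p of 0.05 in limma when the diets were compared over all 3 libraries each. That was 0% of 18390, and 1.96% (361 genes) had an unadjusted p under 0.05. With the state as a term 0 passed (2.63% at an unadjusted p under 0.05), and among the high-state libraries 0 (2.84%). All libraries of 3 and 10 ppm were of low per1b. Their spread also enters the high-state test, which comes from a fit of all 12 libraries. The test of whether the diet difference itself differed between the states also called 0 genes (2.49%). The low pair, with the lone libraries assumed to vary like the other groups, gave 0 as well (2.14% at an unadjusted p under 0.05, smallest limma adjusted p 0.764). The limma-voom fit, on recovered fragments, called 0 in each of these. Without 1 ppm 2, 1 gene passed with the state as a term, 4 among high-state libraries and 1 in the test of the difference between states. Without control 3, 3 passed among high-state libraries, and without any other library 0 passed in any comparison.

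The gene of smallest p was nupr1, whose product is a small chromatin-binding protein induced by many kinds of cell stress. It had 498, 525 and 345 in control against 856, 799 and 777 in 1 ppm pools. All 1 ppm libraries lay above all controls, and the groups were 811 ± 41.0 at 1 ppm and 456 ± 97.2 in the controls (SD, n = 3). The difference was 0.85 (SE 0.15; limma adjusted p = 0.810), or 0.89 among high-state and 0.78 between low-state libraries. It was the smallest adjusted p of the comparison, and with the state as a term it was 0.568.

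Other genes were higher at 1 ppm in all 3 libraries. Complete separation of this kind was seen in 3.26% of all genes. The death effector domain gene dedd1 (ENSDARG00000093482) had 24.6, 60.6 and 43.6 in control pools and 85.5, 102 and 123.3 in 1 ppm pools. The gene duox, which encodes an oxidase that makes hydrogen peroxide for thyroid hormone synthesis and epithelial defence, had 28.1, 30.1 and 17.9 in control against 43.4, 56.6 and 59.7 in 1 ppm pools. Its difference of 1.06 (SE 0.26) was larger in the high state (1.29) than in the low pair (0.61).

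Receptor and adhesion genes were also among them. The natriuretic peptide receptor gene npr1a had 21.1, 22.4 and 22.4 in control pools and 46.8, 42.2 and 39.8 in 1 ppm pools, and its controls lay within 2 scaled counts of each other. The integrin gene itga10, whose product binds collagen, had 228, 179 and 180.2 in control against 366, 271 and 309 in 1 ppm pools. The RNA helicase gene ddx43 had 29.0, 10.5 and 17.03 in control pools and 51.9, 39.7 and 43.3 in 1 ppm pools, with a difference of 1.31. Controls and 1 ppm libraries did not overlap in any of these 3 genes. Among more abundant genes the mitochondrial carrier gene slc25a36a had 800.5, 680.5 and 600.5 in control against 871, 917 and 941 in 1 ppm pools, with a difference of 0.40. The zinc finger gene znf148 had 170.5, 171 and 186 in control pools and 224, 226 and 222 in 1 ppm pools, with 0.35. All 1 ppm libraries of both were above all controls. The limma adjusted p was 1.00 for npr1a, itga10, ddx43, slc25a36a and znf148.

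Among genes that were lower at 1 ppm in all 3 libraries, 2.77% of all genes, was otx5, a homeobox gene of photoreceptors and the pineal. It had 253, 237 and 230.3 in control against 161, 169 and 117 in 1 ppm pools, a difference of -0.70 (SE 0.18; limma adjusted p = 1.00) that was alike in both states (-0.73 in the high and -0.65 in the low). The gene impact, whose product restrains the kinase Gcn2 of the amino acid response, had 45.7, 42.7 and 73.5 in control pools and 23.8, 29.6 and 32.8 in 1 ppm pools. The macrophage gene mpeg1.2, a pore-forming protein of phagocytes, had 121, 81.8 and 118 in control against 57.0, 71.8 and 65.5 in 1 ppm pools. In neither of them did the diets overlap. The inhibitory receptor gene gabrr3a, a GABA receptor subunit known from the retina, had 17.6, 9.79 and 11.7 in control pools and 7.65, 4.22 and 3.51 in 1 ppm pools, near the lower limit of the counts. The glycosyltransferase gene mgat4a had 251, 106 and 86.9 in control against 99.5, 62.5 and 21.1 in 1 ppm pools, so its diets overlapped while it was lower at 1 ppm within both states.

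**Figure D3:**
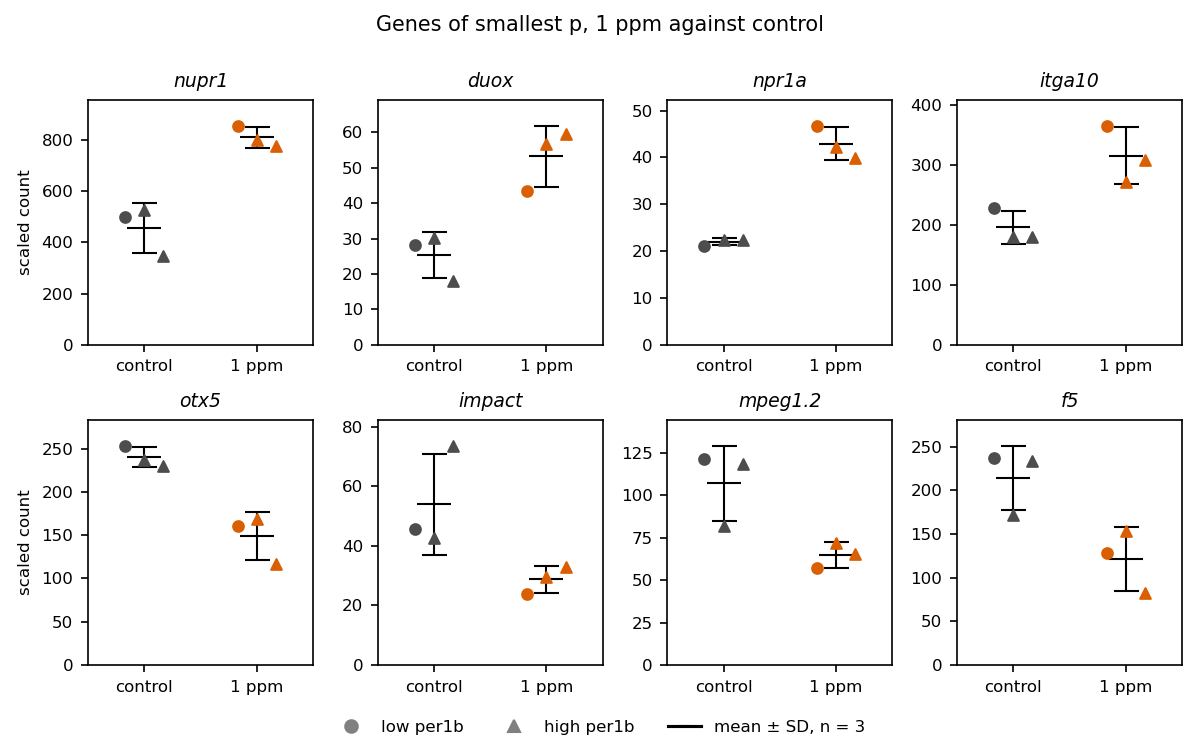
Scaled counts of 8 genes among those of smallest p, 4 higher and 4 lower at 1 ppm. Circles are libraries of low per1b, triangles libraries of high per1b, and bars give the mean ± SD (n = 3). The diets do not overlap in any panel, and none of these genes passed at an adjusted p of 0.05.

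Gene lists were described by the number of members on each side and by their median, beside the median of all tested genes (-0.01 over all libraries, -0.02 in the high state and 0.02 in the low pair). Over all libraries 51.8% of all genes were lower at 1 ppm and 48.2% higher, among high-state libraries 53.6% and 46.4%, and in the low pair 47.3% and 52.7%. Of 77 lists, 8 with at least 15 tested members had medians below -0.1 in both states. These were phototransduction, coagulation, complement, acute phase proteins, amino acid breakdown, endocrine pancreas, glucocorticoid targets and clock repressors. Another 2 had medians above 0.1 in both, mitosis and exocrine pancreas, and 7 had medians beyond 0.1 in opposite directions. In whole larvae, fewer cells of a type and less RNA per cell cannot be told apart.

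**Figure D4:**
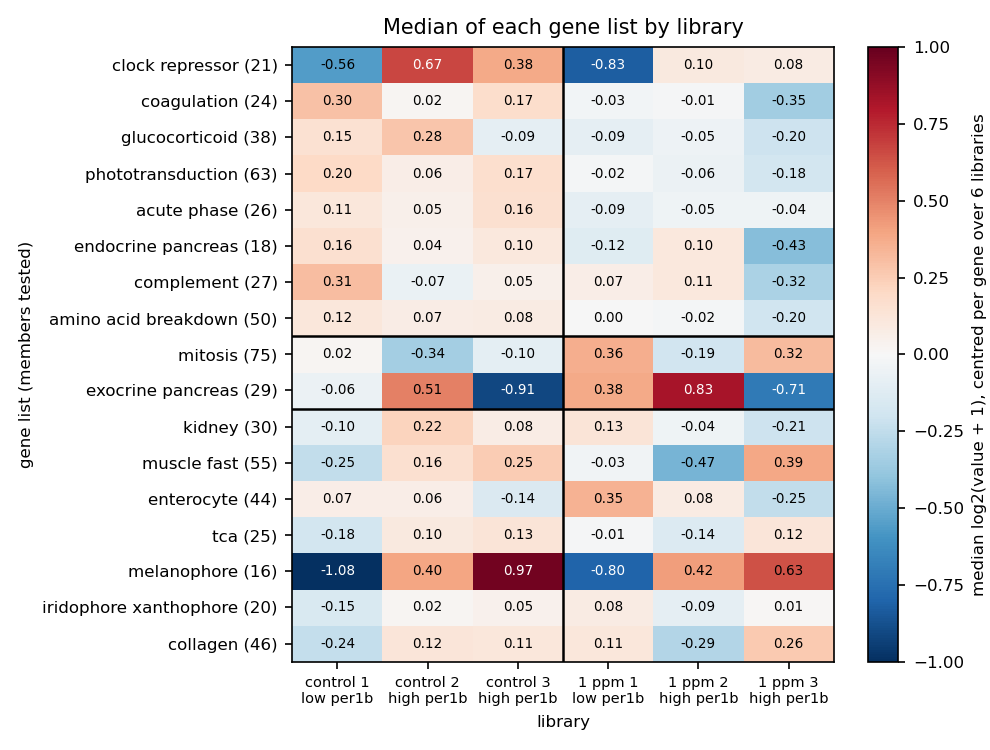
Median of each gene list in each of the 6 libraries, after centring log2(scaled count + 1) of each gene on its mean over these libraries. Red is above and blue below that mean. The upper block holds lists that were lower at 1 ppm in both states, the middle block lists that were higher in both, and the lower block lists that differed in opposite directions. Phototransduction, coagulation, acute phase and amino acid breakdown genes separate the diets, while melanophore and clock repressor genes separate the states.

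Genes of phototransduction, the chain of proteins that turns light into a change of membrane potential in rods and cones, were lower at 1 ppm. Of 63 tested members 56 were lower and 7 higher, with medians of -0.25 in the high state and -0.26 in the low pair. The centred list medians were 0.20, 0.06 and 0.17 in control and -0.02, -0.06 and -0.18 in 1 ppm pools, so no 1 ppm library reached a control. Within both states 23 members were lower without overlap and 1 higher, where all genes gave 6.36% lower and 6.7% higher. None passed singly.

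Members that were lower at 1 ppm lay at several steps of the chain, while the opsins, a separate list, are given below. The channel gene cnga3b, a cone subunit gated by cyclic GMP, had 9.67, 36.4 and 18.8 in control pools and 4.25, 6.76 and 9.36 in 1 ppm pools and the difference of smallest p on the list (-1.41; limma adjusted p = 1.00 with the state as a term). The kinase gene grk7a, which shuts off cone opsins, had 739.8, 1762 and 1300.5 in control against 574, 956 and 1068 in 1 ppm pools. The gene guca1c, a calcium sensor that switches on guanylate cyclase, had 94.0, 432 and 199 in control pools and 66.3, 166 and 174 in 1 ppm pools. These 3 genes were also lower in low-state than in high-state libraries of the same diet, and lower at 1 ppm within each state. None of the 3 overlapped within a state. The matrix gene impg1a, of the space between photoreceptors, had 257, 458 and 469.6 in control against 236, 340.5 and 282 in 1 ppm pools. It was likewise lowest in the low-state library of each diet. Others that were lower in both states, named after their values were seen, were the phosphodiesterase genes pde6a and pde6b, the rod channel gene cnga1, the cone arrestin gene arr3a and the phosducin gene pdcb.

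Opsin genes did not share 1 direction. The rod opsin gene rho had 8080.1, 7994 and 9803 in control pools and 8028, 6793 and 7880.0 in 1 ppm pools, a difference of -0.19, and the ultraviolet cone opsin gene opn1sw1 had 26136, 21490.0 and 14147 in control against 18082, 21011 and 16318 in 1 ppm pools. The green and red cone opsins followed the state. The green opsin gene opn1mw2 had 12896, 6906 and 3579.5 in control pools and 10860.0, 9044 and 7372 in 1 ppm pools, and the red opsin gene opn1lw2 had 13578, 6513 and 3822 in control against 11359, 10718 and 6621 in 1 ppm pools. In the high state both were higher at 1 ppm (0.72 and 0.76), and in the low pair both were lower (-0.25 and -0.26). Rod and ultraviolet opsin levels overlapped between the diets. A second red opsin gene, opn1lw1, had 163, 39.9 and 14.3 in control pools and 184, 92.9 and 45.6 in 1 ppm pools, higher at 1 ppm within both states without overlap (1.4 in the high state and 0.17 in the low pair). The transducin gene gnat2, the cone G protein, had 6878, 6255 and 4937 in control against 5242, 6068 and 4873 in 1 ppm pools. Retinal transcription factors had 27 of 35 members lower, with a median of -0.27 in the low pair and -0.0022 in the high state.

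Liver products were lower at 1 ppm, clotting factors among them. Of 24 tested clotting factors and inhibitors 20 were lower, with medians of -0.27 and -0.30 in the high state and the low pair, and within both states 8 were lower and 2 higher without overlap (6.36% and 6.7% of all genes). The centred list medians were 0.30, 0.02 and 0.17 in control and -0.03, -0.01 and -0.35 in 1 ppm pools. The gene f5 for factor V, a cofactor in thrombin formation, had 237, 172 and 233 in control pools and 128, 154 and 81.9 in 1 ppm pools. The anticoagulant genes proca and pros1, for protein C and its cofactor protein S, had 162, 139.7 and 117 in control against 103, 100.8 and 77.2 in 1 ppm pools, and 170.5, 145 and 151 in control pools and 128, 117 and 102 in 1 ppm pools, respectively. None of these 3 genes overlapped between the diets, and 1 ppm 3 was the lowest library of each.

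Of 31 plasma protein genes 24 were lower, 10 of them within both states (6.36% of all genes), with medians of -0.10 in the high state and -0.21 in the low pair. The transthyretin gene ttr, whose product carries thyroid hormone, had 597, 442 and 436 in control against 392, 411 and 323 in 1 ppm pools. The ceruloplasmin gene cp, for the copper-carrying ferroxidase of plasma, had 628, 615 and 826 in control pools and 611, 449 and 398 in 1 ppm pools, so it differed in the high state (-0.75) and hardly in the low pair (-0.04). Neither gene overlapped between the diets. The hepatocyte marker fabp10a, a fatty acid binding protein, had 4914, 4417 and 4238 in control against 4135, 3909.9 and 3479.6 in 1 ppm pools, lower at 1 ppm in all 3 libraries (-0.24). Transferrin (tfa), another hepatocyte marker, had 8386, 6296 and 8472 in control pools and 8441, 8013 and 5981 in 1 ppm pools, with overlapping groups. Without control 1 or without 1 ppm 3 the median of the plasma protein list was -0.11 in place of -0.22, and with library weights it was -0.07. The coagulation median went from -0.28 to -0.15 with these weights.

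Other liver pathways had the same sign. Of 50 genes of amino acid breakdown 38 were lower, 13 of them within both states (6.36% of all genes), and the centred list medians were 0.12, 0.07 and 0.08 in control and -0.0037, -0.02 and -0.20 in 1 ppm pools. The tryptophan dioxygenase gene tdo2a had 474, 570.0 and 553 in control against 420.1, 431 and 387 in 1 ppm pools, and bhmt, which returns a methyl group from betaine to homocysteine, had 4851, 4610.1 and 4845 in control pools and 4439, 3819.5 and 3820.1 in 1 ppm pools. In both genes every 1 ppm library was below every control. Of 26 acute phase genes 21 were lower, with medians of -0.13 and -0.20 in the high state and the low pair. Of 27 complement genes 21 were lower. Within both states 2 (7.4%) were lower and 1 (3.7%) higher without overlap, beside 6.36% and 6.7% of all genes. The complement median of -0.19 moved to -0.07 without 1 ppm 3, -0.11 without control 1 and -0.35 without control 2. These lists share members, such as cp in plasma proteins and acute phase and c3a.1 in complement and acute phase. Bile acid genes had a median of -0.03 and genes of fatty acid synthesis -0.02.

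**Figure D5:**
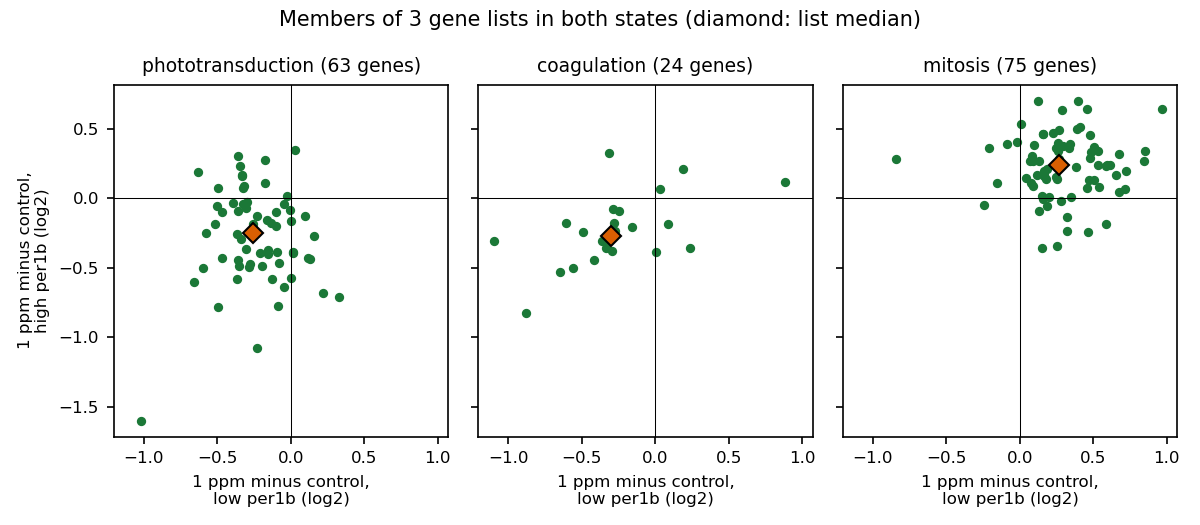
Each dot is a tested member of the named list, with the diet difference (1 ppm minus control, log2) in the low-per1b pair on the x axis and in the high-per1b libraries on the y axis. The diamond is the list median. Most phototransduction and coagulation genes lie in the lower left part and most mitosis genes in the upper right.

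Genes of the exocrine and of the endocrine pancreas differed in opposite directions. Of 29 genes of digestive enzymes and the exocrine pancreas 26 were higher at 1 ppm, with medians of 0.28 in the high state and 0.44 in the low pair. The spread within each diet was wider than this difference, since the centred list medians were -0.06, 0.51 and -0.91 in control and 0.38, 0.83 and -0.71 in 1 ppm pools. Within both states 2 members (6.9%) were higher and 0 lower without overlap, beside 6.7% and 6.36% of all genes. The trypsin gene try had 18385, 26344 and 9929.6 in control against 22478, 33565 and 10986 in 1 ppm pools, and library 3 was the lowest of each diet. The disulfide isomerase gene pdia2, which folds digestive enzymes, had 483, 908 and 453 in control pools and 909, 1533 and 552 in 1 ppm pools. In the high state its diets overlapped. The list median of 0.32 turned to -0.09 without control 3. It was 0.02 without 1 ppm 2, 0.18 without 1 ppm 1, 0.75 without 1 ppm 3 and 0.63 without control 2.

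Of 18 genes of hormone cells 16 were lower, with medians of -0.13 in the high state and -0.36 in the low pair. The glucagon gene gcgb had 36.9, 29.4 and 33.2 in control against 17.01, 26.2 and 14.0 in 1 ppm pools. The gene scgn, for a calcium-binding protein of islet cells, had 81.7, 74.1 and 79.8 in control pools and 62.1, 71.8 and 43.3 in 1 ppm pools, and neither gene's diets overlapped. The insulin gene ins had 199, 166 and 226 in control against 145, 215 and 132 in 1 ppm pools, with overlap. Without 1 ppm 2 the list median was -0.35 in place of -0.19, and with 1 library left out it ranged from -0.35 to -0.14. Of 24 genes of insulin and growth hormone signalling 21 were lower. Within both states 2 (8.3%) were lower and 0 higher without overlap, beside 6.36% and 6.7% of all genes. In this list igfals, which holds insulin-like growth factor in plasma, had 26.4, 45.5 and 51.1 in control pools and 20.4, 23.7 and 21.1 in 1 ppm pools, without overlap. The insulin and growth median of -0.17 was -0.09 without 1 ppm 3 and -0.26 without 1 ppm 1.

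Mitosis genes were higher at 1 ppm. Of 75 tested members 68 were higher and 7 lower, with medians of 0.24 in the high state and 0.26 in the low pair. Within both states 16 were higher without overlap and 0 lower, where all genes gave 6.7% higher and 6.36% lower. The kinetochore gene spc24, which couples chromosomes to the spindle, had 33.4, 22.3 and 32.4 in control against 66.4, 37.8 and 48.1 in 1 ppm pools. Its diets did not overlap. The spindle genes prc1b and tacc3 had 51.8, 33.6 and 35.0 in control pools and 71.4, 43.9 and 66.7 in 1 ppm pools, and 148, 88.1 and 105 in control against 180.3, 133 and 169.7 in 1 ppm pools, respectively. These overlapped between the diets and not within a state. Libraries of low per1b held more of these transcripts than the high-state libraries of their diet, with a median state difference of -0.25 in the controls and -0.32 at 1 ppm. The centred list medians were 0.02, -0.34 and -0.10 in control and 0.36, -0.19 and 0.32 in 1 ppm pools. Thus 1 ppm 2 lay among the controls, and 1 ppm 3, of high per1b, was nearly level with 1 ppm 1. Without 1 ppm 2 the median over all libraries was 0.45 in place of 0.26, and with 1 library left out it ranged from 0.17 to 0.45.

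Genes of DNA replication had 42 of 53 members higher and a median of 0.11. Within both states 4 (7.5%) were higher and 0 lower without overlap, beside 6.7% and 6.36% of all genes. The replication genes gins3 and dhfr, for a part of the replicative helicase and for the enzyme that keeps folate reduced, had 21.1, 20.3 and 30.5 in control pools and 40.8, 32.1 and 39.8 in 1 ppm pools, and 51.8, 69.9 and 69.0 in control against 88.4, 84.5 and 84.2 in 1 ppm pools, respectively, and their diets did not overlap. The median was -0.01 without 1 ppm 3, 0.04 without control 1, 0.19 without 1 ppm 1 and 0.23 without control 3. Histone genes had a median of 0.01.

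Stress genes other than nupr1 were divided. Of 38 targets and parts of the glucocorticoid axis 32 were lower, with medians of -0.24 in the high state and -0.31 in the low pair. The list holds clock genes, per1a among them. The target gene fkbp5, whose product tempers the receptor, had 319.8, 1283 and 69.9 in control pools and 148, 63.4 and 66.7 in 1 ppm pools, and control 2 stood far above the rest. The transcription factor gene klf9, another target, had 154, 685 and 84.2 in control against 123.3, 55.8 and 45.6 in 1 ppm pools, again with control 2 the highest. Both genes were lower at 1 ppm within each state. Without control 2 the list median was -0.07 in place of -0.27, and without control 3 it was -0.43. The pituitary gene pomca, the precursor of the hormone that drives the axis, had 64.1, 69.2 and 73.5 in control pools and 38.3, 68.4 and 43.3 in 1 ppm pools, and was lower at 1 ppm within both states.

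Heat shock genes differed more between states than between diets, with a median state difference of 0.24 in the controls and 0.20 at 1 ppm. Their diet medians were -0.11 in the high state and -0.0028 in the low pair, and 10 of 60 were lower and 2 higher within both states (6.36% and 6.7% of all genes). The heat shock factor gene hsf2 had 149, 443 and 515 in control against 104, 393 and 377 in 1 ppm pools, lower at 1 ppm within both states. Of 50 genes of the unfolded protein and integrated stress response 34 were higher, with a median of 0.07. The gene sdf2l1, a chaperone partner of the endoplasmic reticulum, had 52.7, 63.6 and 74.4 in control pools and 78.2, 71.0 and 122.8 in 1 ppm pools, and calr, for the calcium-binding chaperone calreticulin, had 702, 604 and 602 in control against 733, 741 and 932 in 1 ppm pools. The diets overlapped in sdf2l1 and not in calr.

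Genes that respond to metals and oxidants had medians near that of all genes over all libraries. The gene mt2, for a metallothionein that binds metals through its cysteines, had 324, 354 and 459 in control pools and 234, 291 and 395 in 1 ppm pools, a difference of -0.32 with overlapping groups. The list of metal binding and transport had a median of -0.02, and that of Nrf2 targets, glutathione and thioredoxin 0.03 with 34 of 58 members higher. The metal median was -0.08 in the high state and 0.11 in the low pair, and the Nrf2 median 0.04 and 0.13. Within both states 4 Nrf2 members (6.9%) were higher and 0 lower without overlap, beside 6.7% and 6.36% of all genes. The glutathione peroxidase gene gpx1a, a selenium enzyme, had 200.3, 209.8 and 288 in control against 279.8, 372 and 376 in 1 ppm pools, higher at 1 ppm within both states (0.56; SE 0.34; limma adjusted p = 1.00). The haem oxygenase gene hmox1a had 234, 148 and 121 in control pools and 311, 155 and 41.0 in 1 ppm pools, with 1 ppm 1 the highest and 1 ppm 3 the lowest. Selenoprotein genes had a median of -0.01, cytochrome P450 genes -0.004 and genes of p53 and apoptosis 0.002.

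Several tissues differed between diets in 1 state and not, or oppositely, in the other. Of 56 lens genes 51 were lower in the low pair, with a median of -0.82, and 23 were lower in the high state, with a median of 0.05. The centred list medians were 0.48, 0.17 and -0.31 in control and -0.34, 0.22 and -0.18 in 1 ppm pools. The crystallin gene cryba1b had 4318, 3864 and 2624 in control against 2798, 2849 and 2985 in 1 ppm pools. Control 1 held the highest level of the 6 libraries. Of 55 fast muscle genes 50 were higher in the low pair (median 0.24) and 50 lower in the high state (median -0.25). The centred medians were -0.25, 0.16 and 0.25 in control and -0.03, -0.47 and 0.39 in 1 ppm pools. The myosin gene myhz2 had 22304, 25599 and 29559 in control pools and 23422, 14832 and 35539 in 1 ppm pools, so 1 ppm 2 was the lowest. Of 46 collagen genes 44 were higher in the low pair (median 0.41) and 38 lower in the high state (median -0.14). Their centred medians were -0.24, 0.12 and 0.11 in control and 0.11, -0.29 and 0.26 in 1 ppm pools. The low-state differences rest on control 1 and 1 ppm 1 alone. Gene by gene, the test of the difference between the states called 0 of 18390, and its smallest limma adjusted p was 0.328.

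Lists of synaptic genes had lower medians in the low pair, with 1 library for each diet, than among the high-state libraries. Of 63 genes of synaptic vesicles 51 were lower in the low pair (median -0.23), while the high-state median was -0.03. Of 40 genes of GABA and glycine transmission 31 were lower in the low pair (median -0.42), against a high-state median of -0.05. For 49 genes of glutamate transmission these medians were -0.28 and -0.02. The centred medians of the glutamate list were 0.30, 0.09 and -0.20 in control and 0.05, 0.22 and -0.44 in 1 ppm pools. Those of GABA and glycine were 0.26, 0.04 and -0.11 in control and -0.05, 0.24 and -0.29 in 1 ppm pools. Those of synaptic vesicles were 0.17, 0.05 and -0.10 in control and -0.04, 0.18 and -0.19 in 1 ppm pools. In each of these lists 1 ppm 2 lay above and 1 ppm 3 below both high-state controls. The glutamate transporter gene slc1a2a, which clears the transmitter from synapses, had 68.5, 109.8 and 90.5 in control against 45.9, 80.3 and 44.5 in 1 ppm pools. It was lower at 1 ppm within both states (-0.73 and -0.57). The neuron marker elavl3 had 981, 885 and 911 in control pools and 1099.5, 928 and 861 in 1 ppm pools and the glia marker gfap 1896, 1858 and 2015 in control against 1665, 1764 and 2046 in 1 ppm pools. Lists of voltage-gated channels (-0.04), of young neurons (-0.02) and of glia and myelin (0.03) had medians near that of all genes.

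Immune and gut genes gave single differences in both directions. The class I histocompatibility gene mhc1zca had 41.3, 37.8 and 40.3 in control pools and 14.5, 26.2 and 29.2 in 1 ppm pools, lower in all 3 libraries of 1 ppm (-0.80; limma adjusted p = 1.00). The chemokine receptor gene cxcr4a had 19.3, 21.7 and 20.6 in control against 25.5, 38.0 and 33.9 in 1 ppm pools, higher in all 3. The myeloid list had a median of -0.003 and the interferon and antigen presentation list -0.01. The enterocyte marker fabp2, an intestinal fatty acid binding protein, had 2414, 2874 and 2778 in control pools and 3211, 3698 and 3558 in 1 ppm pools, and the retinol carrier gene rbp2a had 1491, 1418 and 1179.5 in control against 1952, 1722 and 1556 in 1 ppm pools. The diets did not overlap in either gene. Other enterocyte genes, slc6a19b (-0.48), chia.6 (-0.44) and si:ch73-40a17.3 (-0.54), were lower at 1 ppm within both states. Of 44 tested enterocyte genes 7 were higher and 6 lower within both states without overlap (6.7% and 6.36% of all genes). The list median was -0.02 over all libraries, -0.14 in the high state and 0.15 in the low pair. Of 30 genes known to respond to fasting 25 were lower at 1 ppm over all libraries. In the high state 24 were lower (median -0.19) and 15 in the low pair (median -0.00052). Their median of -0.16 was -0.01 without control 2, -0.08 without 1 ppm 3 and -0.26 without control 3. Among them lpin1, for a lipin that makes diacylglycerol and regulates transcription, had 685, 1493 and 829 in control pools and 625, 639 and 495 in 1 ppm pools, below every control. Going the other way, the carnitine transferase gene cpt1ab, which admits fatty acids to mitochondria, had 428, 393 and 454 in control against 465, 603 and 612 in 1 ppm pools, above every control. Within both states 1 of the 30 fasting genes (3.3%) was lower and 1 higher without overlap, beside 6.36% and 6.7% of all genes. The glucose transporter gene slc2a1a had 139, 137 and 126 in control pools and 60.4, 144 and 52.6 in 1 ppm pools, with 1 ppm 2 at the level of the controls.

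Lists of housekeeping genes lay close to all genes over all libraries, and some differed between the states. Nuclear-encoded genes of the respiratory chain had a median of 0.02 and mitochondrially encoded genes -0.04. In the low pair these medians were 0.08 (73 of 95 higher) and -0.17 (13 of 13 lower). In the high state they were -0.01 (44 of 95 higher) and 0.04 (10 of 13 higher). Proteins of the cytosolic ribosome had 73 of 85 genes lower, with a median of -0.06, and 9 (10.6%) were lower within both states, beside 6.36% of all genes. Genes of ribosome assembly moved with the state, with medians of 0.71 in the controls and 0.44 at 1 ppm. Their diet medians were -0.17 in the high state (53 of 61 lower) and 0.08 in the low pair (41 of 61 higher). Proteasome genes had a diet median of 0.03, skin and keratin genes -0.03, cartilage and bone genes 0.02 and heart genes 0.05. In the low pair the heart median was 0.33 (22 of 26 higher) and the cartilage and bone median 0.15. In the high state they were -0.06 and -0.03. Among cartilage genes matn3a, for a matrix protein of cartilage, had 100.2, 305 and 266 in control against 199, 339.6 and 709 in 1 ppm pools, higher at 1 ppm within both states.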

How the data were processed

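Pools of 5 whole embryos from 4 parental diets (3 libraries each) were sequenced as paired reads, and the authors deposited scaled fragment counts (used here as a signal, since the values are not whole) and FPKM values per gene. The submitters' processing notes name CASAVA 1.8.2, cutadapt, FastQC, TopHat, Cuffnorm and the Zv9 genome. Each library's values were whole multiples of 1 step for 98.1 to 98.6% of values (tolerance 0.02 of a step), which gave the fragments per library. The column written CRTL3 was read as control 3. Of 32674 genes, 20495 had a symbol in the files, 1553 got one from a table of gene names and 10626 had none.

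Genes whose mean scaled count over all 12 libraries reached 10 were fitted in limma 3.58.1 (R 4.3.3, trend and robust) on log2(scaled count + 1), with all 12 libraries in 1 fit and Benjamini-Hochberg adjustment over 18390 genes at 0.05. The comparison was refitted with the per1b state as a term, among high-state libraries, for the difference between states, and between the low-state libraries, 1 for each diet, with the spread taken from the other groups (added after seeing the data). The labels do not give separate clutches. The deposited signal table gave the main values and the deposited FPKM table the alternatives. The fits were tested on simulated data.

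The 77 gene lists, matched by symbol, and the members and rules were chosen with earlier results of these data known. The patterns for selenoproteins, collagens and the proteasome were narrowed after they were seen to match unrelated genes. Named genes were those of smallest p and up to 4 genes of each list by p, with markers. Genes that differed by more than 1 the same way in the low pair and in every high-state pairing of the diets were added. These were taken from the smallest such difference upwards. Medians and counts of lists carry no test. Counts of 281 symbols shared by several gene IDs, and of near-identical copies such as opsins and crystallins, may be split between copies. Whether the counting used strand is not given in the sources used here. Analyses used Python 3.11.15 with pandas 2.3.3 and numpy 2.4.6.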

Additional observations from a re-analysis of the deposited data

Results flagged for a closer look

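Of the 77 gene lists, those of at least 15 tested members were searched for opposite directions in the states. In 6 of them both high-state libraries of 1 ppm lay on the same side of both high-state controls, by the centred list median. The low pair differed the other way, and the median differences had opposite signs in the states. The lists were picked for this pattern, and how many would show it without a diet difference was not assessed. The kidney list had a median difference of 0.23 in the low pair and -0.24 among the high-state libraries. The list of iridescent and yellow pigment cells had 0.25 and -0.11, and that of fatty acid oxidation 0.13 and -0.080. Smaller values were seen for ionocytes (0.050 and -0.077), skin and keratins (0.038 and -0.081) and Tgf-beta and activin signalling (0.014 and -0.059). The difference between the states was not tested for these lists, and the low pair has 1 library for each diet. Gene by gene, limma called 0 of 18390 genes in the test of the difference between the states, and 458 had an unadjusted p under 0.05.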

How the results depend on the processing

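No gene passed at an adjusted p of 0.05 in limma in any of the comparisons (all libraries, with the state as a term, high-state libraries, difference between states, low-state libraries) under any alternative that kept all 6 libraries, except that 1 gene passed between the low-state libraries with no filter on low values. These were both FPKM scales, a pseudocount of 5, rescaling by the median of ratios, limma-voom, other filters on low values, a fit to the control and 1 ppm libraries alone and library weights. With 1 library left out, the counts of the first 4 ranged from 0 to 0, 0 to 1, 0 to 4 and 0 to 1, and genes with an unadjusted p under 0.05 over all settings ranged from 175 to 885 over all libraries. A replicate block, fitted to the control and 1 ppm libraries alone, gave 0 calls and 699 genes at an unadjusted p under 0.05. Its count thus differs from that of the fit of all 12 libraries in the libraries used as well as in the block. Deviations of same-numbered pools correlated at 0.472, -0.108 and 0.442, control 2 correlated better with 1 ppm 3 (0.269) than with its own number, and the samples were taken to share only a number. The planned edgeR test and TMM factors were not run, since the values are scaled, and limma-voom and the median of ratios, chosen after seeing the data, took their place.

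Of the leading counts and list medians under the alternatives, 243 values were classed as unmoved and 16 as moved. A count was unmoved if it stayed the same. A list median was unmoved if it shifted by less than the SD between pools within the diets. That SD is wide where pools of a diet differ, as between per1b states, so an unmoved median could change sign. Examples are exocrine pancreas (0.32, and -0.09 without control 3) and clock repressors (-0.32, and 0.09 without control 2). With library weights the median was -0.16 for phototransduction, -0.15 for coagulation, -0.070 for plasma proteins, -0.052 for complement, -0.75 for clock repressors and 0.034 for DNA replication. Without 1 ppm 3 and with the state as a term it was -0.14 for plasma proteins, -0.098 for complement, -0.12 for endocrine and 0.75 for exocrine pancreas, -0.068 for insulin and growth, -0.13 for clock repressors, 0.12 for mitosis and 0.029 for DNA replication. Without both low-state libraries it was -0.097 for plasma proteins and -0.12 for complement, and with limma-voom -0.093 for amino acid breakdown and -0.11 for insulin and growth. The acute phase median was -0.15 with log2(FPKM + 0.1), -0.14 with log2(FPKM + 1) and with library weights, -0.13 without both low-state libraries and -0.16 without 1 ppm 3 and with the state as a term. With 1 library left out it ranged from -0.22 to -0.16, and the glucocorticoid median from -0.43 to -0.069. Leaving out 1 library makes the numbers of high-state libraries unequal, and the differences of genes that vary with the state then ranged from -1.60 to 0.58 for per1b, -3.10 to 0.68 for nr1d1, -1.19 to 0.081 for bhlhe41, -0.71 to 0.0064 for per2, -0.21 to 1.18 for cry2b, -0.59 to 0.79 for arntl1b, -1.48 to 1.55 for rpe65a, -0.94 to 0.24 for hsf2, -0.87 to 0.038 for rhcgl1, -0.072 to 0.85 for opn1mw2 and -0.015 to 0.90 for opn1lw2. Ranges with both signs were also seen for opn1sw1 (-0.37 to 0.075), try (-0.12 to 0.70), myhz2 (-0.46 to 0.17), hmox1a (-1.0 to 0.45), tfa (-0.19 to 0.10) and elavl3 (-0.049 to 0.13). The cause was not tested for these genes or for those that vary with the state. Other settings turned elavl3 to -0.014 on both FPKM scales and -0.0067 without both low-state libraries, hmox1a to 0.25 with library weights and 0.30 without 1 ppm 3 and with the state as a term, and tfa to 0.13 and 0.080 under the same. They turned opn1sw1 to 0.087 and rpe65a to -0.32 without both low-state libraries, and rpe65a to -1.18 with library weights. No other gene with scaled counts in the text changed direction under an alternative run. The enterocyte genes given only as differences were not checked. Depth limits the genes below about 30 scaled counts, such as gabrr3a and cnga3b.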

Other observations

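Thyroid, skin, blood and fuel genes gave further values, none of which passed at an adjusted p of 0.05 in limma. Among 11 tested genes of the thyroid axis 3 separated the diets in all pools, duox upward and the carrier gene ttr downward, and dio3b downward as well (3.26% of all genes were higher and 2.77% lower without overlap). The gene dio3b, for a deiodinase that inactivates thyroid hormone, had 56.2, 76.2 and 52.0 in control pools and 37.4, 47.3 and 50.3 in 1 ppm pools. In ionocytes, the skin cells that exchange salts and ammonia with the water, the ammonium transporter gene rhcgl1 had 172, 366 and 494 in control against 119.9, 295 and 355 in 1 ppm pools. The salt transporter gene slc12a10.3 had 20.2, 28.7 and 17.9 in control pools and 19.6, 10.98 and 7.02 in 1 ppm pools, lower at 1 ppm mostly in the high state (-1.27, against -0.04 in the low pair). Over 27 ionocyte genes the median difference was -0.05.

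The organic anion transporter gene slc22a6l of the kidney tubule had 64.1, 78.3 and 75.3 in control against 77.4, 21.1 and 43.3 in 1 ppm pools, with a difference of -1.31 in the high state and 0.27 in the low pair. The lipoprotein receptor gene ldlra had 503, 641 and 441 in control pools and 448, 344 and 329 in 1 ppm pools, lower at 1 ppm within both states, while 24 genes of cholesterol synthesis and uptake had a median of 0.06. Of 27 red cell genes 21 were higher at 1 ppm (median 0.13 in the high state and -0.05 in the low pair). Of 51 genes of glycolysis 34 were lower (medians -0.12 and -0.05). Of 22 genes driven by the clock 18 were lower (medians -0.19 and -0.09), beside state differences of 0.42 in control and 0.15 in 1 ppm pools. For 43 genes of monoamines and neuropeptides the medians were 0.06 in the high state and -0.43 in the low pair.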
